A study of Mus musculus with 6 samples.

Results

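The miR-130/miR-301 and miR-148/miR-152 families are 2 groups of microRNAs (miRNAs) with overlapping seeds, the stretch of bases 2 to 8 that pairs with target RNAs. Here they were measured on AGO2, the Argonaute protein that carries miRNAs to their targets, in a mouse embryonic stem cell line. The members were taken by name from the count tables and comprise mmu-miR-130a-3p, mmu-miR-130b-3p, mmu-miR-301a-3p and mmu-miR-301b-3p in the first family and mmu-miR-148a-3p, mmu-miR-148b-3p and mmu-miR-152-3p in the second (mmu, for mouse, is left out of the names below). These are 7 of the 1978 mature miRNAs counted, and all 7 had counts in both libraries. The cells carried the Spy3-Ago2 genotype and were grown in 12.5% serum together with LIF, the cytokine used to hold such cells undifferentiated. Spy3-tagged AGO2 was bound through SpyCatcher3 on a resin, and its RNA was recovered from the part of a gel between 70 and 150 kDa. The series holds 6 libraries, 2 each of AGO2-bound miRNAs, AGO2-bound target RNAs and input RNA from whole lysate, all from cells of this one genotype, so that no treated or mutant group stands against a control. The values below come from the 2 miRNA libraries and from a single list of target peaks. Nothing in the labels tells whether separate cultures or clones gave the replicates, so their spread may be technical.

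A miRNA is cut from a hairpin precursor as a duplex of a 5p and a 3p strand, of which AGO2 usually keeps one as the guide. miR-130/miR-301 miRNAs are known for their part in vascular and fat cell biology and in TGF-beta signalling. miR-148/miR-152 miRNAs are known for repressing the DNA methyltransferase Dnmt1, and both families have been reported to act on cholesterol transport genes.

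The mature sequences show how closely the families are related. They are given 5′ to 3′ with the seed in capitals, for the 6 members matched by name in the RefSeq miRNA table (build GRCm38.p6, which mm10 denotes too). No sequence is shown for miR-301b-3p.
miR-130a-3p: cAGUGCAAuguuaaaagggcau
miR-130b-3p: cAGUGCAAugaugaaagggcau
miR-301a-3p: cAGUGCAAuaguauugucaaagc
miR-148a-3p: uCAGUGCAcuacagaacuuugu
miR-148b-3p: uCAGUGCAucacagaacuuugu
miR-152-3p: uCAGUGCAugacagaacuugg

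The 3 miR-130/miR-301 sequences shared the seed AGUGCAA and the 3 miR-148/miR-152 sequences the seed CAGUGCA. The seeds have the 6 bases AGUGCA in common, which lie at bases 2 to 7 of the first family and one base further in the second. Beyond the seed, miR-130a-3p and miR-130b-3p were identical except for 2 bases (U11A and A13G, counted from 1 at the 5′ end with the base of the first-named miRNA first), whereas miR-130a-3p and miR-301a-3p differed at 10 of 22 bases. In the second family, miR-148a-3p and miR-148b-3p differed by C9U and U10C, and miR-148b-3p and miR-152-3p by C10G and U20G. No other name in that table had the same sequence as any of the 6. The sources used here do not give how reads matching more than one miRNA were assigned, which matters most for these near-identical pairs.

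The genes lie at 6 places in the genome, and one pair is adjacent. Mature miR-130b-3p lies at chr16:17124071-17124092 on the minus strand, and its hairpin gene Mir130b lies 257 nt from Mir301b, the only other miRNA gene within 10 kb of any member. Both sit inside the span of the protein-coding gene 2610318N02Rik, which has the same strand in the RefSeq promoter table. Mature miR-130a-3p lies at chr2:84741116-84741137 on the minus strand, in no protein-coding gene, with Ypel4 nearest at 2460 nt from the hairpin. Mature miR-301a-3p (chr11:87113054-87113076, plus strand) lies within Ska2, a gene for a kinetochore protein. Mature miR-148b-3p (chr15:103285185-103285206, plus strand) and miR-152-3p (chr11:96850439-96850459, plus strand) lie within Copz1 and Copz2, paralogous genes for coatomer subunits. Mature miR-148a-3p (chr6:51269829-51269850, minus strand) lies in the span of the predicted coding gene Gm38821. Whether these positions are exonic or intronic was not examined here.

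The 2 miRNA libraries held 12562727 and 22908172 counts, where the floor of 3 counts corresponds to 2.39e-05% and 1.31e-05%. All 5 listed embryonic stem cell miRNAs of the miR-290 and miR-302 clusters had at least 10 counts in both and summed to 5.37% and 6.52%, against 0.0119% and 0.00999% for 5 let-7 miRNAs of differentiated cells. Of the lists for other cell types, neural miRNAs summed to 0.988% and 1.66%, blood to 0.845% and 0.943%, mesenchymal to 0.166% and 0.179%, endothelial to 0.0570% and 0.0647%, liver to 0.0211% and 0.0223% and muscle to 0.000422% and 0.000572%. No marker of these lists was at 0 in both libraries. At least 10 counts in both were reached by 4 of 5 blood, 3 of 4 mesenchymal and 2 of 3 muscle markers. Single miRNAs made up most of the larger sums. By mean share, miR-124-3p had 1.23% of the neural 1.32% and miR-150-5p 0.677% of the blood 0.894%. miR-145a-5p had 0.152% of the mesenchymal 0.173%.

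The first question was how much of each family AGO2 held. The miR-130/miR-301 members together made up 1.21% of the counts (95% Wilson interval 1.201 to 1.213) in replicate 1 and 0.928% (0.924 to 0.932) in replicate 2, a mean of 1.07% ± 0.20 (SD, n = 2 here and below). The miR-148/miR-152 members made up 0.109% (0.107 to 0.111) and 0.105% (0.103 to 0.106), a mean of 0.107% ± 0.0030. The miR-130/miR-301 family was therefore the larger in both libraries. The ratio of the families, which does not depend on depth, was 11.1 in replicate 1 (counting interval 10.9 to 11.3) and 8.86 in replicate 2 (8.74 to 8.98), or 9.97 ± 1.57. With 2 libraries, an exact sign-flip test cannot go below p = 0.5, so the families are compared by their spread only: the difference of their means exceeded both SDs. Intervals cover counting error alone and would be too narrow if PCR copies of one molecule were counted separately.

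Within the miR-130/miR-301 family, counts were dominated by the miR-130 miRNAs. miR-130a-3p held 0.717% of replicate 1 and 0.571% of replicate 2, a mean of 0.644% ± 0.10, and ranked 28 among all 1978 names by mean share. miR-130b-3p held 0.281% and 0.193%, a mean of 0.237% ± 0.063 at rank 60. Both miRNAs have the same seed, and replicate 1 gave the higher share for each.

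miR-301a-3p, from the Ska2 locus, held 0.157% and 0.125%, a mean of 0.141% ± 0.022 at rank 76. miR-301b-3p, from the locus next to miR-130b, held 0.0523% and 0.0394%, a mean of 0.0458% ± 0.0092 at rank 139. Like the miR-130 miRNAs, both were higher in replicate 1.

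The miR-148/miR-152 members did not all differ in the same direction between the libraries. miR-148a-3p, the most abundant of them, held 0.0570% of replicate 1 and 0.0627% of replicate 2, a mean of 0.0598% ± 0.0040 at rank 124. miR-152-3p held 0.0380% and 0.0257%, a mean of 0.0318% ± 0.0087 at rank 161. miR-148b-3p held 0.0140% and 0.0164%, a mean of 0.0152% ± 0.0017 at rank 201. Of these, only miR-152-3p was higher in replicate 1.

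**Figure D1:**
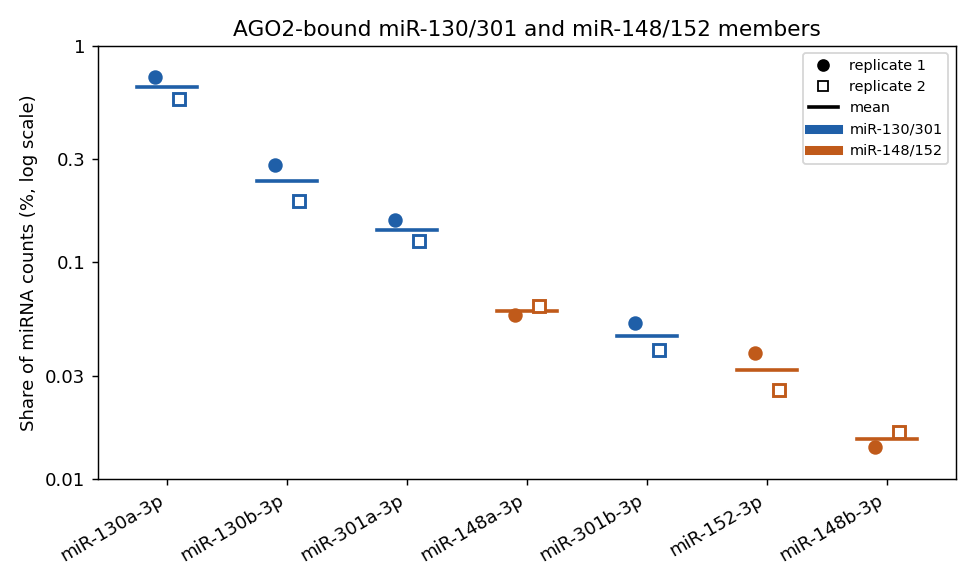
Share of all miRNA counts (percent, log scale) for each of the 7 members, ordered by mean, with replicate 1 as filled circles, replicate 2 as open squares and the mean as a bar. The members descend from 0.644% for miR-130a-3p to 0.0152% for miR-148b-3p, and the miR-148/miR-152 member miR-148a-3p lies above the miR-130/miR-301 member miR-301b-3p.

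The order of the 7 members was the same in both libraries, and each of the 6 neighbouring pairs differed by more than the SD of either miRNA. The steps were uneven. miR-130a-3p exceeded miR-130b-3p 2.55-fold in replicate 1 and 2.96-fold in replicate 2, and miR-148a-3p exceeded miR-148b-3p 4.07-fold and 3.82-fold. The families overlapped at one place, where miR-148a-3p stood above miR-301b-3p by 1.09-fold in replicate 1 and 1.59-fold in replicate 2. The range from the highest to the lowest member was 51.2-fold and 34.8-fold.

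By level, the miRNAs nearest to miR-130a-3p outside the families were miR-20b-5p (0.658%) and miR-23a-3p (0.648%) above it and miR-106a-5p (0.634%) and miR-24-3p (0.606%) below it. All 4 lay within the SD of miR-130a-3p, so their order relative to it is not settled. The nearest to miR-148a-3p were miR-466h-3p (0.0621%), miR-291b-5p (0.0602%), miR-26b-5p (0.0597%) and miR-467d-5p (0.0591%), again all within its SD. Likeness here is the mean share over 2 libraries and nothing more.

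In the miR-130/miR-301 family no member's share of the family differed by over 2.55 percentage points between the libraries. miR-130a-3p took 59.4% of the family counts in replicate 1 and 61.5% in replicate 2, miR-130b-3p 23.3% and 20.7%, miR-301a-3p 13.0% and 13.5% and miR-301b-3p 4.33% and 4.24%. The counting intervals of the replicates did not overlap for miR-130a-3p, miR-130b-3p and miR-301a-3p, and overlapped for miR-301b-3p. For miR-130b-3p they were 23.1 to 23.5 in replicate 1 and 20.6 to 20.9 in replicate 2. The ratio of miR-130a-3p to miR-301a-3p was 4.57 in replicate 1 and 4.55 in replicate 2, although these miRNAs come from different chromosomes. The adjacent pair did not share one level: miR-130b-3p exceeded miR-301b-3p 5.37-fold and 4.89-fold. Their locus gave 27.63% and 24.99% of the family's counts.

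In the miR-148/miR-152 family the make-up differed more between the libraries, by up to 10.4 percentage points. miR-148a-3p took 52.3% of the family (interval 51.5 to 53.1) in replicate 1 and 59.8% (59.2 to 60.4) in replicate 2. miR-152-3p took 34.9% (34.1 to 35.7) and 24.5% (24.0 to 25.1), and miR-148b-3p 12.8% and 15.7%. The ratio of miR-148a-3p to miR-152-3p was 2.44 in replicate 2, which is 1.63-fold higher than in replicate 1, while that of miR-148a-3p to miR-148b-3p was 4.07 and 3.82. The summed share of the family differed between the libraries by 1.04-fold.

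**Figure D2:**
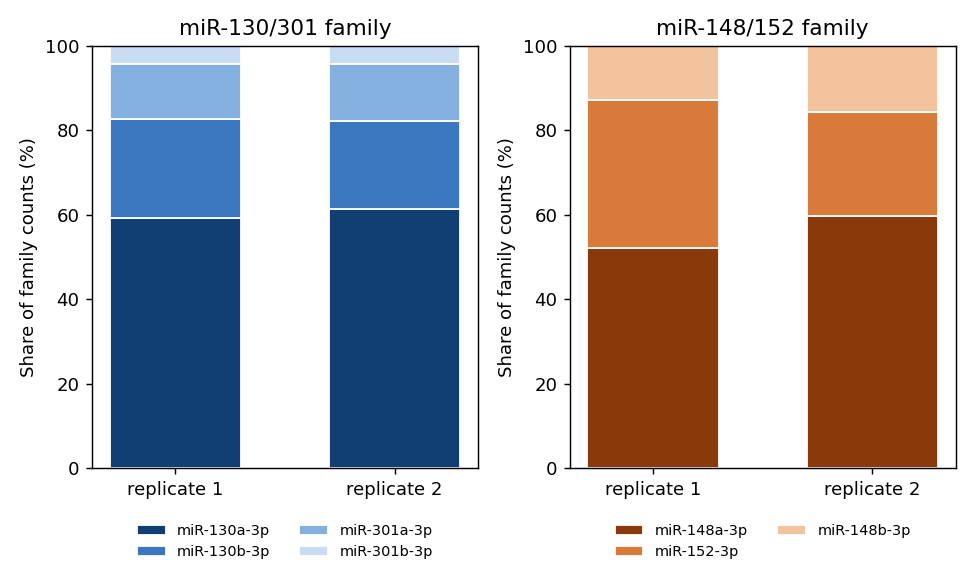
Share of the family's counts (percent) taken by each member in replicate 1 and replicate 2, as stacked bars for the miR-130/miR-301 family on the left and the miR-148/miR-152 family on the right. miR-130a-3p takes 59.4% and 61.5% of its family, and miR-152-3p takes 34.9% and 24.5% of its family.

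The replicates were then set against each other for every miRNA, which compares these libraries and not conditions. A two-sided Fisher's exact test over the 814 miRNAs with at least 10 counts in sum, Benjamini-Hochberg adjusted, called 339 at an adjusted p of 0.05, or 41.6%. All 7 members were called by this exact test, the weakest being miR-148b-3p with an adjusted p of 1.14e-07. Among the 427 miRNAs that reached 100 counts in both libraries, as all members did, the test called 67.4%, so a call on its own says little about the members. The least abundant member, miR-148b-3p, had 1758 and 3761 counts, so the 67.4% is not a rate matched for depth. Of the members, 5 were lower in replicate 2, against 54.8% of these 427 miRNAs.

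On the log2 scale, the difference of replicate 2 from replicate 1 was -0.33 for miR-130a-3p, -0.55 for miR-130b-3p, -0.32 for miR-301a-3p, -0.41 for miR-301b-3p and -0.57 for miR-152-3p. It was 0.14 for miR-148a-3p and 0.23 for miR-148b-3p. Over the 427 miRNAs the median was -0.04 and the SD 0.30. Counted from the lowest, miR-152-3p stood at place 12, miR-130b-3p at place 14, miR-301b-3p at place 25, miR-130a-3p at place 43 and miR-301a-3p at place 46, whereas miR-148a-3p stood at place 317 and miR-148b-3p at place 355. The median of the 4 miR-130/miR-301 members was -0.37. No member differed 1.5-fold, which 4.92% of the 427 miRNAs did. The direction of each of the 7 differences was the same when the libraries were scaled without miR-290a-5p, without rare miRNAs, by edgeR's TMM factors or by DESeq2's size factors. Each such scaling shifts every miRNA by the same amount, so it tells nothing about single members. The shifts were small: miR-148a-3p, with the smallest difference, lay between 0.126 and 0.150 under them. Depth differed too, by 1.82-fold. Of the marker sums, that of the neural list was 1.68-fold higher in replicate 2, of stem cells 1.21-fold, of endothelium 1.14-fold, of blood 1.12-fold, of mesenchyme 1.07-fold and of liver 1.06-fold, whereas that of let-7 was 0.836 times its value in replicate 1. The muscle sum was higher in replicate 2 as well, at 0.000572% against 0.000422%. Single markers within the neural, stem cell and liver sums did not move together. On the log2 scale, the neural miR-124-3p differed by 0.80 and miR-9-5p by 0.03. Of the stem cell list, miR-291a-3p (0.49), miR-295-3p (0.14) and miR-290a-3p (0.04) were higher in replicate 2, and miR-294-3p (-0.18) and miR-302a-3p (-0.38) lower. In the liver list, miR-122-5p stood at 1.75 and miR-192-5p at -0.05. Of the let-7 list, let-7a-5p (-0.22), let-7c-5p (-0.54) and let-7g-5p (-0.07) were all lower in replicate 2. The part of depth and of these markers in the differences was not tested.

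**Figure D3:**
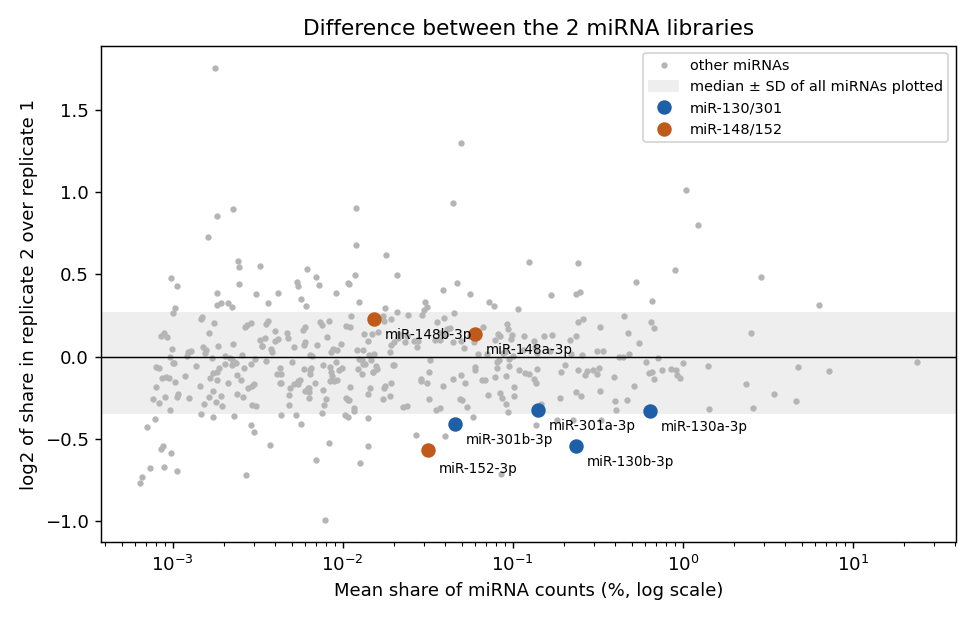
Log2 of the share in replicate 2 over that in replicate 1 against the mean share (percent, log scale) for the 427 miRNAs that reached 100 counts in both libraries, with the members coloured by family and a band for the median ± SD of all points. The 4 miR-130/miR-301 members and miR-152-3p lie between -0.57 and -0.32, and miR-148a-3p and miR-148b-3p lie above 0.

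The other strand of each hairpin was examined next, to see which arm AGO2 held. The 5p arm was the minor one in all 7 hairpins. It took 0.0688% and 0.136% of the counts of the miR-130a hairpin, with 62 and 178 counts of miR-130a-5p against 90043 and 130752 of miR-130a-3p. In the miR-152 hairpin it had 13 and 11 counts, or 0.272% and 0.187%. The 5p shares of miR-301a, miR-301b and miR-148a lay between 0.478% and 0.966% in both libraries.

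2 hairpins kept far more of their 5p arm. miR-130b-5p had 3796 and 6239 counts, which is 9.70% of its hairpin (Wilson interval 9.41 to 10.0) in the first library and 12.4% (12.1 to 12.7) in the second. miR-148b-5p had 204 and 462 counts, or 10.4% (9.12 to 11.8) and 10.9% (10.0 to 11.9). Each family thus held 1 hairpin in which the 5p strand made up 9.70% to 12.4% of the bound strands. In the miR-130/miR-301 family, miR-130b-5p made up 94.3% and 93.9% of all 5p counts, and its mean share of 0.0287% of the library lay within the SD of that of the guide miR-152-3p.

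By mean 3p share, 5 of the 7 hairpins had at least 90% of their counts on the 3p arm, against 100 of the 260 hairpins (38.5%) whose 2 arms have matching names and reached 100 counts together in both libraries. The members were chosen as 3p strands, so this count of 5 of 7 is a description. On either arm, 188 of the 260 hairpins (72.3%) had at least 90% of their counts, and 5 of 7 lies near that share. The 3p share of miR-130b differed between the libraries by 2.69 percentage points, place 45 of 260 by size, against a median of 0.401. The other 6 member hairpins differed by at most 0.543 points. Of the 7 5p arms, Fisher's exact test called miR-130a-5p, miR-130b-5p and miR-148b-5p different between the libraries, with adjusted p-values of 0.00552, 2.15e-06 and 0.0252. These 3 of 7 lie near the 41.6% called among all 814 miRNAs tested. miR-130a-5p was 1.57-fold higher in replicate 2 while its 3p strand was 1.26-fold higher in replicate 1.

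**Figure D4:**
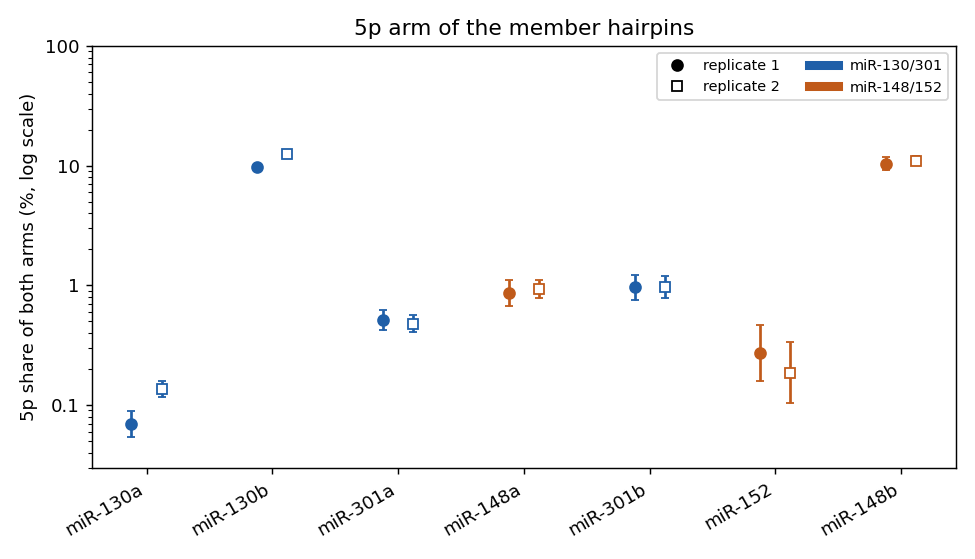
Share of the 5p arm among both arms of each member hairpin (percent, log scale), with 95% Wilson intervals as bars, replicate 1 as filled circles and replicate 2 as open squares. miR-130b and miR-148b lie between 9.70% and 12.4%, and the other 5 hairpins lie below 1%.

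The 5p arms of 3 miR-130/miR-301 hairpins held UUGCACU, the reverse complement of the family's seed, near their 3′ end. They are shown with these bases in capitals, at positions 13 to 19.
miR-130b-5p: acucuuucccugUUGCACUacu
miR-301a-5p: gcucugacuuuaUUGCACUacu
miR-301b-5p: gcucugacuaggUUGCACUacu

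miR-130a-5p did not hold these letters. UUGCACU, read on the miRNA strand only, was found in 9 of the 1679 mature miRNAs with a sequence (0.536%), and 6 of the 9 were not arms of the member hairpins, among them miR-92a-3p and miR-25-3p, named here after their sequences were seen. The reverse complement of the miR-148/miR-152 seed, UGCACUG, was in none of the 3 5p arms of that family.

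The families were also set among all miRNAs that carry the shared bases AGUGCA. Of the 1679 mature miRNAs, 24 (1.43%) held them anywhere, and 10 that are not members had them start within bases 1 to 9. Of these, miR-130c, miR-721, miR-6341 and miR-6389 had the full miR-130/miR-301 seed, and each of the 4 had 0 counts in both libraries, which allows a share of up to 2.39e-05% in replicate 1 and 1.31e-05% in replicate 2. They begin like the members over 9 to 15 bases, miR-6389 matching miR-130a-3p over the first 15, and the labels do not tell how reads from such shared starts were counted. Except for the members, no mature miRNA in the table had the miR-148/miR-152 seed.

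The remaining 6 carry AGUGCA without the full seed of either family. The most abundant was miR-139-5p, with 1196 and 2296 counts or 0.00977% ± 0.0004, and it is shown with AGUGCA in capitals, at bases 6 to 11.
miR-139-5p: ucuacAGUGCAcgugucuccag
miR-291b-3p: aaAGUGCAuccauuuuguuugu
miR-350-5p: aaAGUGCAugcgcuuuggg

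miR-291b-3p, of the stem cell miR-290 cluster, and miR-350-5p have AGUGCA at bases 3 to 8 as miR-148a-3p does, after an A in place of its C, so their seed is AAGUGCA. They had means of 0.00266% and 0.00262%. miR-449c-5p and miR-141-5p had 0.000231% and 9.1e-05%, and miR-759 had 0 counts. Of all counts on these 10 miRNAs and the members together, the 7 members held 98.9% and 98.5%.

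Target peaks were examined in genes reported in the literature to be repressed by these families, from lists drawn up from general knowledge. Of 16 listed genes reported here for miR-130/miR-301, 2 had a peak by midpoint, and of 20 for miR-148/miR-152, 5 had one, against 8.30% of 21887 protein-coding nuclear genes. Any overlap of a peak with the gene span gave the same counts of 2 and 5 genes, against 8.31% of all. Peaks depend on how much of a transcript a cell makes, which was not measured here, and no peak is tied to a particular miRNA. The peak list has no value per sample, so no replicate spread can be given.

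Dnmt1, which encodes the maintenance DNA methyltransferase and is on the miR-148/miR-152 list, had 5 peaks on chromosome 9, the most of any listed gene. Their midpoints lay 267, 2046, 2522, 5400 and 8691 nt from the downstream end of the gene span, read along the peak strand, and the one nearest the end spans chr9:20907442-20907504 on the minus strand. Dnmt3b, a de novo methyltransferase gene on the same list, had none. Cdkn1b, which encodes the cell cycle inhibitor p27, had 1 peak at chr6:134924313-134924430, 1154 nt from its end. Bcl2l11, a gene for a protein that promotes cell death, had 2 on chromosome 2, at 165 and 2145 nt. Igf1r, a growth factor receptor gene, had 1 at 5887 nt.

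Of the 3 genes on both lists, Abca1, which exports cholesterol, had 3 peaks on chromosome 4, at 201, 2732 and 3005 nt from its end, the nearest spanning chr4:53030963-53031017 on the minus strand. Csf1 and Acvr1, also on both lists, had none. On the miR-130/miR-301 list alone, only Trp53inp1, a p53-induced gene, had peaks, with 3 on chromosome 4 at 131, 1894 and 9974 nt.

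**Figure D5:**
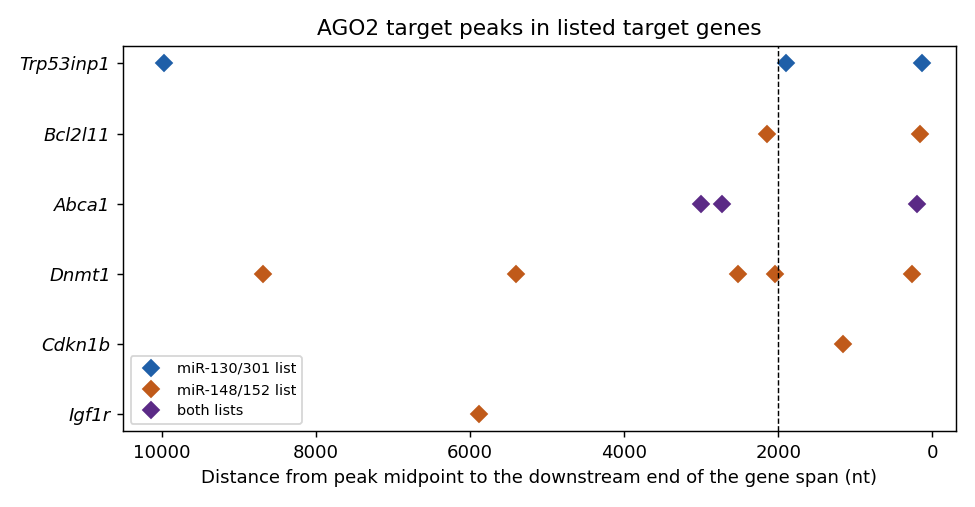
Distance in nt from the midpoint of each peak to the downstream end of the gene span for the 6 listed genes with a peak, coloured by list, with a dashed line at 2000 nt. Of the 15 peaks, 6 lie within 2000 nt, and every gene except Igf1r has at least 1 there.

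Within 2000 nt of the downstream end, 2 of the 16 miR-130/miR-301 genes and 4 of the 20 miR-148/miR-152 genes had a peak, against 3.82% of all protein-coding nuclear genes. In each of the 6 genes with peaks, all peaks lay on one strand. By midpoint, 14 and 15 listed genes had no peak anywhere in their span. No peak overlapped a hairpin of the 7 members, and none lay in 2610318N02Rik, Ska2, Copz1, Copz2 or Gm38821.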

How the data were processed

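Counts per mature miRNA were deposited for each of the 2 miRNA libraries as raw counts, with no normalization. Per the submitters' processing notes, the tools were Bowtie2 2.4.2, STAR 2.5.2a, cutadapt 2.10, UMI-tools, deepTools 3.1.3 and DESeq2 1.36.0, with mm10 as build and no roles named. The peak caller and any collapsing of counts by molecular identifier are not stated. A last row without a name held 0 counts and was not used. The peak list deposited for the series gives 3292 positions, with a score of 0 for every peak.

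From the counts, shares of the library total, Wilson intervals, the mean and SD over replicates and Fisher's exact test with Benjamini-Hochberg adjustment were computed. A chi-square test over the 814 tested miRNAs gave 229528 on 813 degrees of freedom, so the libraries differ by more than counting error. No contrast between groups was fitted, since values per sample were analysed for only 1 group. Alternatives were other denominators, edgeR TMM factors, DESeq2 size factors, pooling and leaving out a replicate. A peak was given to a gene if its midpoint fell in the span of that gene in the RefSeq GRCm38.p6 gene table, which carries neither strand nor exons. The strand of host genes was read from the RefSeq promoter table. Tp53inp1 was matched as Trp53inp1, and 2 listed genes are not reported here and were left out of the list counts. Only the Fisher calls and the Wilson intervals of replicate 1 were tested on simulated counts, drawn with counting error alone. Without a change, the test called 0 of 826 miRNAs. It recovered 16.0% of the miRNAs changed 1.2-fold and 93.0% of those changed 2.0-fold. Sequences come from RefSeq, where 1679 of the 1978 names were matched. The target and input libraries' own values were not analysed here.

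The members and lists were chosen with earlier results of these data known. Names were given to the members, their other arms, miRNAs with the same seed or AGUGCA within bases 1 to 9, the 2 nearest miRNAs by level on each side of each family's leading member, miRNA genes within 10 kb and listed genes with a peak. Listed genes without peaks and single cell type markers were named after their values were seen. Python 3.11.15, numpy 2.4.6, pandas 2.3.3, scipy 1.17.1, matplotlib 3.10.9, R 4.3.3, edgeR 4.0.16 and DESeq2 1.42.0 were used.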

Additional observations from a re-analysis of the deposited data

How the results depend on the processing

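With miR-290a-5p left out of the library totals, the mean share was 1.40% for miR-130/miR-301 and 0.140% for miR-148/miR-152, since the total is smaller, and the shares of the 7 members were higher too. Their ratio does not depend on the total. The family shares moved by less than 1 SD with a minimum of 10 counts, TMM factors, DESeq2 size factors, pooled counts, every miRNA of the same seed, or both arms of the hairpins. Of these settings, only pooled counts (9.67) and both arms (10.0) could change the ratio, and both arms moved it by less than 1 SD. The other settings change only the total or add same-seed miRNAs with 0 counts. A pooled share or ratio always lies between those of the 2 libraries. Pooling therefore could not have moved either by 1 SD and is no check on them. Over single libraries the ratio ranged from 8.86 to 11.1. With a call at 1.5-fold in place of Fisher's exact test, 0 members differed between the replicates instead of 7, and with at least 100 counts in each library the test called 7. Any overlap in place of midpoints left 2 and 5 listed genes with peaks, and peaks within 2000 nt of the end left 2 and 4. No paired analysis was possible because values per sample were analysed here for only 1 group of libraries. With 2 libraries and no control pull-down analysed here, no background level could be subtracted.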
